A study of Mus musculus with 12 samples.

Results

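The genes described here are 48 genes of DNA replication and S phase, the cell cycle stage in which the genome is copied. They were taken by symbol from the 54532 genes of the deposited count table, each symbol matched 1 gene identifier, and all 48 passed the filter on low counts, which left 15014 genes for testing. Sequencing of polyadenylated RNA measured them in tumour-associated macrophages, or TAMs, sorted from the gliomas of 6 mice. Each mouse gave a rhodamine-positive sort, the cells that carried injected nanoparticles, and a rhodamine-negative sort, the cells that did not, which makes 12 libraries in 2 groups of 6. All mice, and so both groups, had the genotype label Ntv-a_Ink4a/Arf_KO and the treatment label Rhodamine_PFCE_NP, a perfluoro-crown-ether nanoparticle tagged with rhodamine and given intravenously. Tumours were collected after 24 hours, and more than 2000 CD45+/CD11b+/Ly6C- cells were taken per sort. The sex label is male for mice 1 to 4 and female for mice 5 and 6, and age is not given in the sources used here. The comparison asks whether replication transcripts differ with nanoparticle uptake within the TAMs of a tumour.

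A cell that is to divide first licenses its replication origins. The origin recognition complex, Cdc6 and Cdt1 load the ring-shaped MCM helicase onto DNA, and Cdc45 and the GINS complex then switch the helicase on. DNA polymerases, held to the template by the PCNA clamp, copy both strands, ribonucleotide reductase and thymidylate synthase supply the building blocks, and chromatin factors restore histones and DNA methylation behind the fork. Most of these genes are transcribed under E2F transcription factors at the transition from G1 to S phase, which is why their transcripts are widely used as a sign of proliferation, including that of macrophages and microglia in tumours.

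The negative sorts held 13421387 to 16167832 counts per library and the positive sorts 13073189 to 17379314. Genes with any count numbered 23450 to 24971 per negative and 19996 to 22201 per positive library. The TMM scaling factors were 1.022 to 1.146 and 0.9226 to 0.9803, also without overlap. Macrophage markers were abundant in every library, where 10 genes summed to 8500 to 16110 CPM (TMM-scaled counts relative to library size) in the negative sorts and to 16340 to 25220 CPM in positive sorts, and 6 rose and 1 fell. Markers of several other cell types, though not of all, were lower in the rhodamine-positive sorts. All 8 dendritic cell markers fell, with sums of 412 to 1485 against 164 to 283 CPM, and 2 of 4 monocyte markers fell, with sums of 225 to 562 against 42.2 to 108.5 CPM. Of 13 glioma and oligodendrocyte lineage markers tested, 6 fell and 1 rose, with sums of 147 to 209.5 against 79.8 to 192 CPM. NK cell, B cell, T cell, neutrophil and basophil or mast cell lists summed to at most 86.8, 70.2, 5.73, 27.2 and 426 CPM in any library, the highest values in rhodamine-negative sorts. Of the T cell markers 3 were tested and 0 called, with a median log2 fold change of 0.28. Of 4 endothelial markers tested 0 were called, with sums of 17.2 to 62.2 against 24.95 to 66.5 CPM. Of 7 microglia markers 1 rose and 0 fell, with a median of 0.25. The part of these cell types in the results below was not tested.

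Replication genes were higher in the TAMs that carried nanoparticles. Of the 48 genes, 30 rose, 0 fell and 18 did not pass the test, which was the quasi-likelihood test of edgeR with the mouse as a block and Benjamini-Hochberg adjustment over all 15014 genes at a threshold of 0.05. Over all genes tested, 13.0% were called higher and 13.2% lower. The median log2 fold change of the 48 genes was 0.43, or 1.35-fold, with a middle range of 0.32 to 0.60, beside a median of -0.02 for all genes tested. At an unadjusted p under 0.05, 37 of the 48 were higher and 0 lower, against 2874 higher and 2928 lower of all 15014 genes tested. DESeq2 and limma-voom also called 0 of the 48 lower. All 6 mice had the higher value in the rhodamine-positive sort for 26 of the 48 genes, against 14.2% of all genes tested. For 7 genes, Rrm1, Rrm2, Tyms, Pole, Gins4, Rpa2 and Rfc5, every rhodamine-positive library lay above every rhodamine-negative library, against 4.14% of all genes. In RNA from sorted populations, a larger share of cells in S phase and more of each transcript per cell cannot be told apart. The changes were small: the extremes were Gins3 at -0.41 and Pold2 at 0.88 on the log2 scale.

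**Figure D1:**
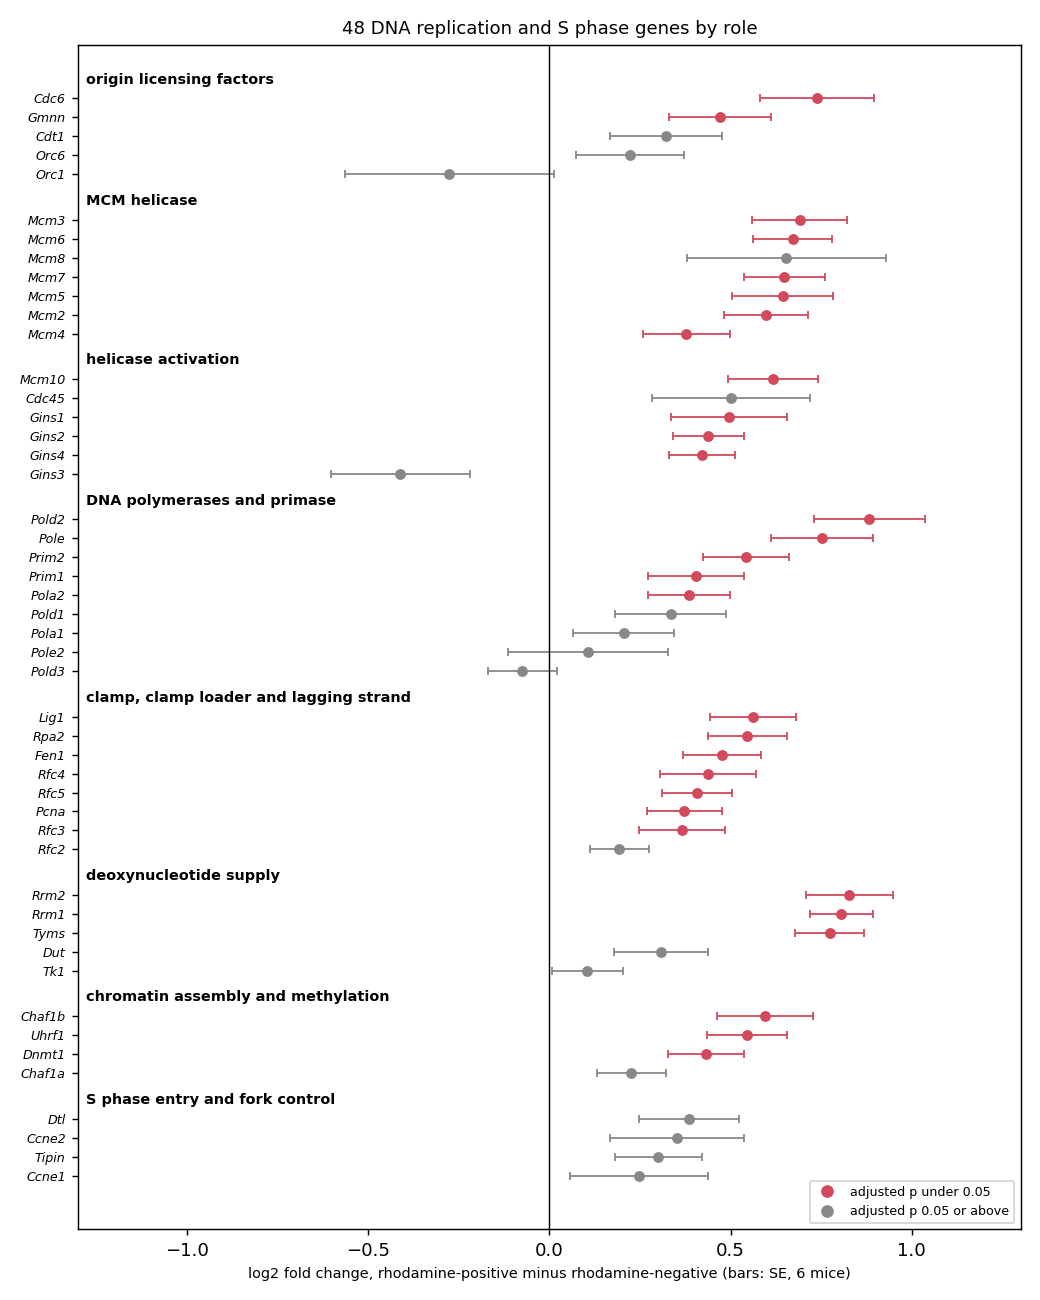
Log2 fold changes of the 48 genes, rhodamine-positive minus rhodamine-negative, grouped by role, with bars of 1 SE over 6 mice. The 30 genes past the test (red) all lie to the right of 0, and 3 genes, Gins3, Orc1 and Pold3, have estimates to the left of it and did not pass.

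For part of the genes the call depended on the mice and the scaling. Leaving out each mouse in turn kept 22 of the 30 calls in every fit. The other 8 were Gmnn, Mcm4, Gins1, Pola2, Prim1, Pcna, Rfc3 and Rfc4, whose estimates stayed positive and whose highest adjusted p without a mouse was 0.0637 (Pcna) to 0.122 (Prim1). With library size as the only scaling, 17 of the 48 genes were higher and Gins3 lower, and 5 (Orc1, Gins3, Pold3, Pole2 and Tk1) had negative estimates. The 13 calls lost there were those of the 8 genes just named and of Gins2, Gins4, Rfc5, Fen1 and Dnmt1, whose adjusted p was 0.0513 to 0.0878. The split over all genes then went from 1955 higher and 1986 lower to 852 higher and 3142 lower. Under that scaling the median log2 fold change was -0.18 over all genes and 0.28 over the 48.

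Of the 5 origin licensing genes 2 rose, with a group median of 0.32. Cdc6, the ATPase that helps to load the helicase, ran from 5.72 to 13.6 CPM (median 9.12) in rhodamine-negative and from 12.3 to 19.3 CPM (median 15.7) in rhodamine-positive sorts. It was higher in every mouse, most of all in mouse 2 (5.72 to 15.4 CPM), although the ranges overlapped because mouse 6 was already at 13.6 CPM in its negative sort. Cdc6 rose by 0.74 ± 0.16 (SE, adjusted p = 0.00556). Gmnn encodes geminin, the inhibitor of Cdt1 that blocks licensing again once S phase has begun, and rose by 0.47 ± 0.14 (adjusted p = 0.0286). That call was lost without mouse 3, 5 or 6 (highest adjusted p = 0.0986). Cdt1 itself had medians of 19.4 CPM (16.1 to 28.3) and 26.8 CPM (15.7 to 37.0) and did not pass (0.32 ± 0.15, adjusted p = 0.145). In mouse 3 it was lower in the positive sort and in mouse 1 nearly equal, at 24.6 CPM in each.

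The subunits of the origin recognition complex among the 48 genes did not pass. Orc6 had medians of 13.9 CPM (9.57 to 17.6) and 16.3 CPM (10.2 to 22.9), with wide overlap and an estimate of 0.22 ± 0.15 (adjusted p = 0.297). Orc1, the largest subunit of the complex, was scarce, at 3.60 to 5.19 CPM (median 4.48) in rhodamine-negative and 1.63 to 7.07 CPM (median 3.67) in rhodamine-positive sorts. Its positive libraries both exceeded and undercut all negative ones: mouse 3 went from 5.19 to 1.63 CPM and mouse 5 from 5.16 to 7.07 CPM. The estimate was -0.28 ± 0.29 (adjusted p = 0.511) on 21 to 102 counts per library.

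All subunits of the replicative helicase ring were higher. Mcm2 to Mcm7 form the ring that unwinds DNA, and these 6 genes rose, with estimates of 0.60 for Mcm2, 0.69 for Mcm3, 0.38 for Mcm4, 0.64 for Mcm5, 0.67 for Mcm6 and 0.65 for Mcm7. Mcm6 had the smallest p of the group: it ran from 74.5 to 106 CPM (median 91.5) in rhodamine-negative and from 94.8 to 174 CPM (median 156) in rhodamine-positive sorts, a difference of 0.67 ± 0.11 (SE, adjusted p = 0.00118). Mouse 2, at 94.8 CPM, was the 1 mouse that had a positive sort inside the range of the negative ones. Mcm3, the most abundant of the 6, went from 91.0 to 112 CPM (median 100.1) to 104 to 189 CPM (median 178). Mouse 2 again stood apart, with 112 CPM in its negative and 104 CPM in its positive sort, while the other 5 positive sorts were at 157 to 189 CPM. Mcm4 had the smallest change, from medians of 46.3 CPM (40.0 to 62.4) to 66.1 CPM (45.4 to 80.1), at 0.38 ± 0.12 (adjusted p = 0.037). The call was lost without mouse 1, 3, 4 or 5 (highest adjusted p = 0.107) and with library size alone (adjusted p = 0.206), and in mouse 6 it stood at 56.2 CPM in each sort.

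Mcm8, a paralogue outside the ring that acts in recombination, had an estimate of similar size but did not pass (0.65 ± 0.27, adjusted p = 0.101). Its levels were low, at 2.18 to 4.65 CPM (median 3.35) and 2.68 to 7.86 CPM (median 6.14). Mice 1 and 2 were lower in the positive sort and mice 3 to 6 higher, and without mouse 2 the adjusted p was 0.0481.

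The factors that turn the loaded ring into an active helicase also rose, apart from 2 genes. Mcm10, which helps to activate the assembled helicase, went from 7.13 to 13.1 CPM (median 8.32) to 10.2 to 21.5 CPM (median 12.3), and rose by 0.62 ± 0.12 (adjusted p = 0.0041), a call lost in the fit that ignored pairing by mouse (adjusted p = 0.0687). Mice 5 and 6 had the highest values in either sort, so the ranges overlapped although every mouse was higher in its positive sort. Among the 4 GINS subunits, Gins1, Gins2 and Gins4 rose by 0.50, 0.44 and 0.42. For Gins4 all negative sorts were at 27.0 to 32.3 CPM (median 29.0) and all positive sorts at 35.2 to 47.7 CPM (median 37.6), without overlap (adjusted p = 0.00588). Gins1 was lost without mouse 2, 3, 5 or 6 (highest adjusted p = 0.0987).

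Gins3, the remaining GINS subunit, had the lowest estimate of the 48 genes, at -0.41 ± 0.19 (adjusted p = 0.136). It had 6.56 to 11.9 CPM (median 7.52) in rhodamine-negative and 3.94 to 8.38 CPM (median 5.87) in rhodamine-positive sorts. In 5 of 6 mice the positive sort was lower, and mouse 3 went the other way, from 6.67 to 8.38 CPM. With library size alone its adjusted p was 0.0426. Cdc45, which joins GINS and MCM in the working helicase, had medians of 11.4 CPM (9.58 to 15.6) and 21.2 CPM (9.23 to 22.7). The positive sorts split, with mice 2 and 3 at 9.23 and 9.78 CPM and the other 4 at 20.7 to 22.7 CPM, and Cdc45 did not pass (0.50 ± 0.22, adjusted p = 0.112). Without mouse 3 its adjusted p was 0.032, and with no filter on low counts 0.0165.

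**Figure D2:**
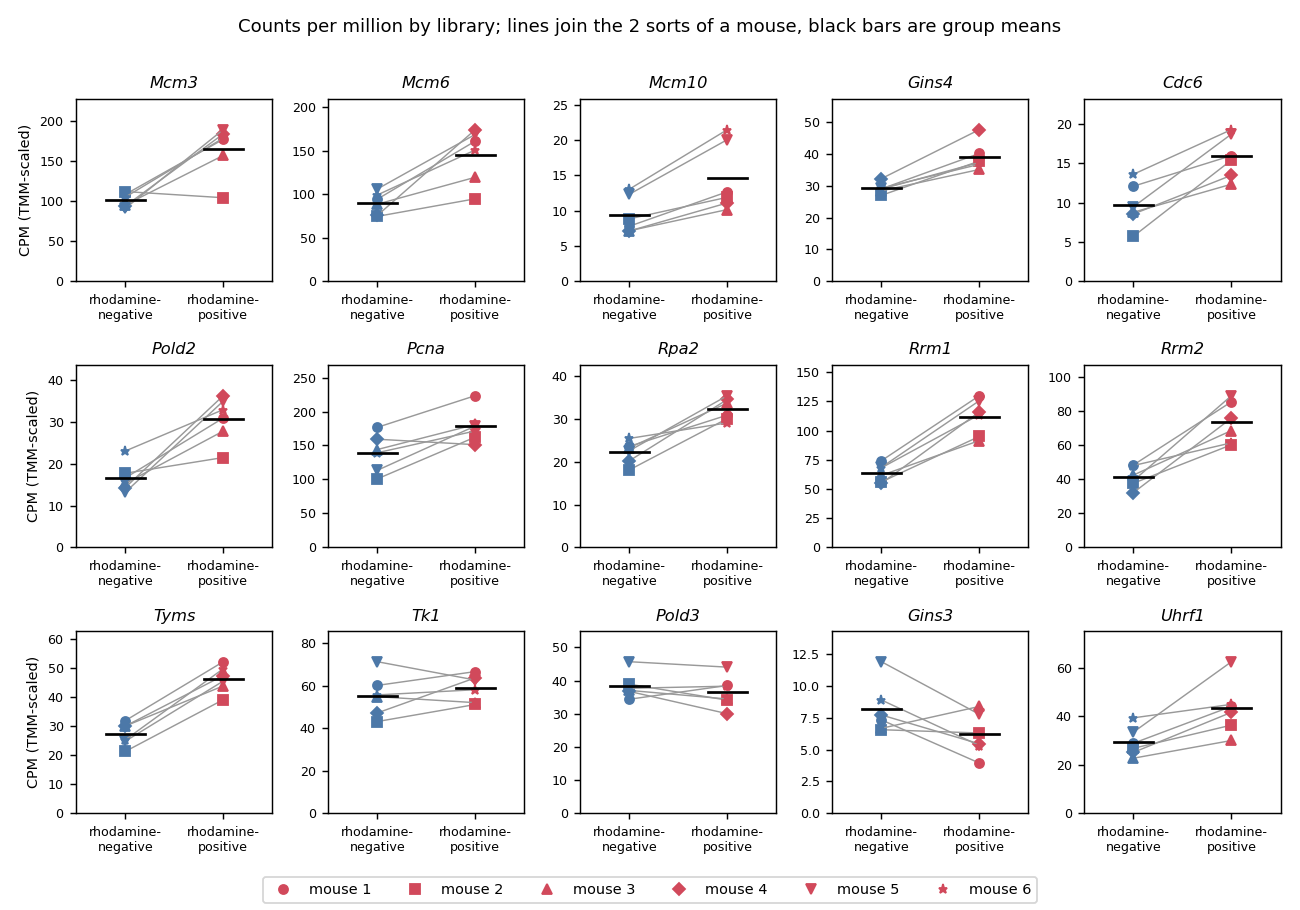
TMM-scaled CPM of 15 of the genes in each library, with lines joining the negative (blue) and positive (red) sort of a mouse and black bars at the group means. Rrm1, Rrm2, Tyms, Rpa2 and Gins4 do not overlap between the sorts, Mcm3 falls from 112 to 104 CPM in mouse 2, and Tk1, Pold3 and Gins3 show no call.

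Calls differed between subunits of the same polymerase, although differences between genes were not tested. Of 9 polymerase and primase genes 5 rose, with a median of 0.38. Pold2, the accessory subunit of polymerase delta, had the highest estimate of the 48 genes: it went from 13.2 to 23.1 CPM (median 16.0) to 21.5 to 36.4 CPM (median 32.0), and rose by 0.88 ± 0.15 (SE, adjusted p = 0.00177). The ranges touched only through mouse 6 in the negative and mouse 2 in the positive sorts. The catalytic subunit Pold1 had medians of 27.4 CPM (15.3 to 34.4) and 31.5 CPM (26.8 to 39.8) and did not pass (0.33 ± 0.15, adjusted p = 0.131). Pold3, another accessory subunit, was nearly level, with medians of 37.4 CPM (34.4 to 45.7) and 36.4 CPM (30.0 to 44.1) and an estimate of -0.07 ± 0.09 (adjusted p = 0.594). The lines of its 6 mice crossed, 2 going up and 4 going down.

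For polymerase epsilon, which copies the leading strand, the catalytic subunit gene Pole rose by 0.75 ± 0.14 (adjusted p = 0.0027). It had 7.13 to 9.84 CPM (median 8.45) in negative and 11.0 to 20.8 CPM (median 13.6) in positive sorts, and mouse 1 held the highest value. Pole2, its second subunit, was at 2.78 to 4.49 CPM (median 3.31) and 2.87 to 4.68 CPM (median 3.55), the ranges lay on top of each other, and it did not pass (0.11 ± 0.22, adjusted p = 0.761). Within the complex of polymerase alpha and primase that starts each new strand, Prim2, Prim1 and Pola2 rose by 0.54, 0.41 and 0.38. Prim1 was lost without mouse 2, 3, 5 or 6 and Pola2 without mouse 1, 3, 4 or 6 (highest adjusted p = 0.122 and 0.0889). Pola1, the catalytic subunit of polymerase alpha, had medians of 9.98 CPM (7.10 to 12.6) and 11.7 CPM (7.80 to 14.7) and did not pass (0.21 ± 0.14, adjusted p = 0.302).

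Genes of the clamp, the clamp loader and the lagging strand rose in 7 of 8 cases, by small and similar amounts around a median of 0.42. Rpa2, a subunit of the protein that coats single-stranded DNA, had the smallest p: all negative sorts were at 18.1 to 25.5 CPM (median 22.9) and all positive sorts at 29.1 to 35.5 CPM (median 32.4), a rise of 0.55 ± 0.11 (adjusted p = 0.00394). Fen1 and Lig1, the flap nuclease and the ligase that join lagging-strand fragments, rose by 0.48 and 0.56. Pcna, the sliding clamp, had medians of 142 CPM (101 to 177) and 175 CPM (151 to 223) and rose by 0.37 ± 0.10 (adjusted p = 0.0203). Mouse 4 was the exception, at 159 CPM in its negative and 151 CPM in its positive sort. The call was lost without mouse 2 or 3 (adjusted p = 0.0637 and 0.0548).

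The clamp loader genes Rfc3, Rfc4 and Rfc5 rose by 0.37, 0.44 and 0.41, of which Rfc3 was lost without mouse 1, 2, 3 or 5 and Rfc4 without mouse 4, 5 or 6 (highest adjusted p = 0.117 and 0.0856). Rfc2, of the same complex, was higher in the positive sort in all 6 mice but by little, with medians of 255 CPM (201.5 to 279) and 285 CPM (266 to 311), and did not pass (0.19 ± 0.08, adjusted p = 0.101). Its value is uncertain because its exons overlap another gene, as given further on.

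Of the 5 genes of deoxynucleotide supply 3 rose, with a median of 0.77. Rrm1 and Rrm2 encode the large and the small subunit of ribonucleotide reductase, and Tyms the enzyme that makes thymidylate. Rrm1 was at 54.8 to 74.2 CPM (median 64.9) in negative and 91.4 to 129.9 CPM (median 115) in positive sorts, and rose by 0.81 ± 0.09 (SE, adjusted p = 8.61e-05), the smallest adjusted p of the 48 genes. Rrm2 went from 32.1 to 48.2 CPM (median 40.7) to 60.1 to 88.8 CPM (median 72.0), at 0.83 ± 0.12 (adjusted p = 0.000552). Tyms went from 21.3 to 31.9 CPM (median 27.6) to 39.1 to 52.2 CPM (median 46.5), at 0.77 ± 0.10 (adjusted p = 0.000214). In none of these 3 genes did a positive library reach down to a negative one. In the mm10 annotation Rrm1 (ENSMUSG00000030978, chr7:102441695-102469771) lies on the plus strand, as does Rrm2 (ENSMUSG00000020649, chr12:24708241-24714146), and Tyms (ENSMUSG00000025747, chr5:30058202-30073617) on the minus strand.

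Tk1, the thymidine kinase that recycles thymidine in S phase, did not pass. It had 43.1 to 71.2 CPM (median 55.2) in negative and 51.1 to 66.6 CPM (median 60.4) in positive sorts, with 4 mice up and 2 down (0.10 ± 0.10, adjusted p = 0.463), and its estimate was -0.056 with library size alone. Dut, which removes dUTP, was higher in the positive sort of every mouse, with medians of 12.9 CPM (10.7 to 18.8) and 17.0 CPM (11.0 to 21.1), and did not pass either (0.31 ± 0.13, adjusted p = 0.103). Mouse 3 had the highest Dut level in both sorts, so the ranges overlapped.

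Of the 4 chromatin genes 3 rose. Uhrf1, which guides the maintenance DNA methyltransferase to newly copied DNA, went from 22.7 to 39.4 CPM (median 27.9) to 30.0 to 62.5 CPM (median 42.9), and rose by 0.55 ± 0.11 (adjusted p = 0.00399). Mouse 3 was lowest in each sort and the ranges overlapped, but all 6 mice were higher in the positive sort. Dnmt1, that methyltransferase, rose by 0.43 and Chaf1b, a subunit of the histone chaperone CAF-1, by 0.59. Chaf1a, the largest CAF-1 subunit, had medians of 43.8 CPM (42.9 to 48.9) and 52.2 CPM (43.0 to 61.9) and did not pass (0.23 ± 0.09, adjusted p = 0.0988).

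None of the 4 genes of S phase entry and fork control passed in the edgeR fit, although all had positive estimates and the group median was 0.33. Dtl and Tipin, 2 of the 4, had an unadjusted p under 0.05. Dtl passed in limma-voom (adjusted p = 0.0445), and an edgeR fit with an offset for gene length and GC content called Dtl and Tipin higher (adjusted p = 0.0184 and 0.0217). Dtl, the receptor of the ubiquitin ligase that removes Cdt1 in S phase, came nearest, with medians of 10.7 CPM (9.25 to 17.1) and 14.4 CPM (10.4 to 24.0) and an estimate of 0.39 ± 0.14 (adjusted p = 0.0581). Mouse 5 was highest in both sorts, and mouse 3 was the only mouse with a lower positive sort. Tipin, of the fork protection complex, had medians of 26.2 CPM (20.4 to 36.6) and 33.4 CPM (28.2 to 34.5) (0.30 ± 0.12, adjusted p = 0.0861), with mouse 4 lower in the positive sort, and without mouse 4 its adjusted p was 0.0327.

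The cyclin E genes, whose products drive entry into S phase with Cdk2, were scattered. Ccne1 had medians of 9.55 CPM (7.84 to 13.8) and 12.5 CPM (8.36 to 20.0) (0.25 ± 0.19, adjusted p = 0.362). It went from 8.89 to 20.0 CPM in mouse 1, while 3 of 6 mice had the lower value in the positive sort. Ccne2 had medians of 6.94 CPM (5.55 to 10.5) and 9.44 CPM (6.99 to 12.6) (0.35 ± 0.18, adjusted p = 0.182).

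The mice differed in how far the 48 genes moved. The positive sort was higher for 45, 36, 38, 42, 44 and 44 of the 48 genes in mice 1 to 6, and the median differences in log2 CPM were 0.43, 0.22, 0.31, 0.59, 0.68 and 0.50. The median of all genes tested stayed between -0.02 and 0.04 in these mice. Mouse 2 had the smallest difference, and it was uneven. Of Mcm2 to Mcm7, 3 of 6 were higher in its positive sort, with a median difference of 0.088, while in the other mice 5 or 6 were higher, with medians of 0.48 to 1.07. The 5 deoxynucleotide genes were all higher in mouse 2, with a median difference of 0.68, within the 0.54 to 0.87 of the other mice. Mouse 3 had negative medians for the licensing genes (-0.32) and near 0 for the entry and fork genes. Leaving out mouse 2 gave 27 and mouse 3 gave 24 genes called higher, where 10.9% and 8.32% of all genes tested were called higher.

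**Figure D3:**
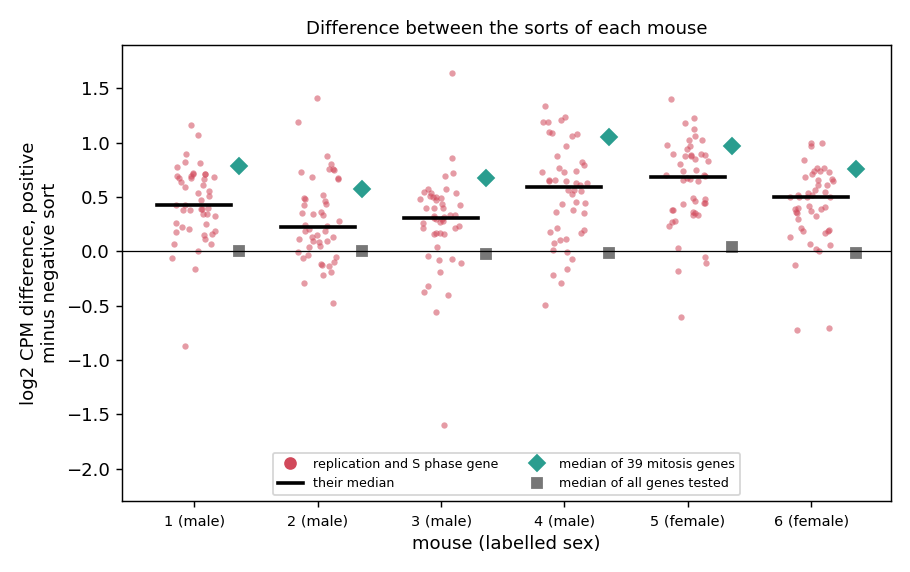
Difference in log2 CPM between the positive and negative sort of each mouse for the 48 genes (red points), with their median (black line), the median of 39 mitosis genes (green diamond) and the median of all genes tested (grey square). The median of the 48 genes is lowest in mouse 2 (0.22) and highest in mouse 5 (0.68), and the mitosis median lies above it in all 6 mice.

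No difference between the sexes was detected. With 4 male and 2 female mice, the interaction of sort and sex in edgeR's quasi-likelihood test gave 0 of 15014 genes past the threshold (0%), with 1160 at an unadjusted p under 0.05. Of the 48 genes 0 passed (lowest adjusted p = 0.562), and Gmnn was the 1 gene with an unadjusted p under 0.05. In the male mice alone 18 of the 48 genes were higher and 0 lower, where 6.64% of 15139 genes tested were called higher.

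Mitosis genes, which act after replication in the same cell cycle, had larger estimates. Of 39 mitosis genes 37 rose and 0 fell, with a median of 0.81, or 1.75-fold, against 0.43 for the replication genes. Both lists were read from the same libraries and several of the mitosis genes were known from earlier results to be higher, so the count is a description. Plk1, a mitotic kinase, rose by 1.12, Top2a, the topoisomerase that untangles copied chromosomes, by 0.91, and Ccnb1, a mitotic cyclin, by 0.94. Pttg1, the securin, and Espl1, the separase it inhibits, did not pass (0.16 ± 0.12 and 0.03 ± 0.10). The mitosis median exceeded the replication median by 0.26 to 0.46 in log2 CPM across the mice, in 6 of 6.

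**Figure D4:**
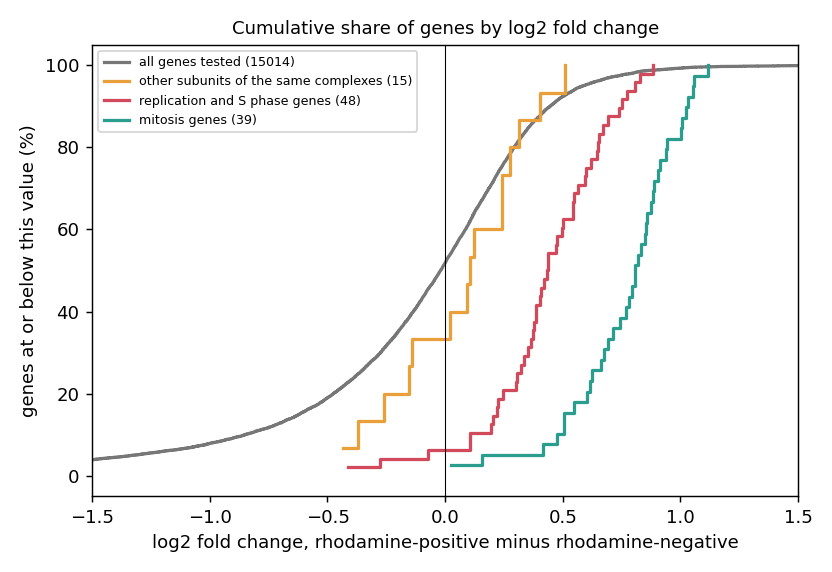
Cumulative percentage of genes by log2 fold change, rhodamine-positive minus rhodamine-negative, for all 15014 genes tested (grey), 15 other subunits of the same complexes (orange), the 48 replication and S phase genes (red) and 39 mitosis genes (green). The medians are -0.02, 0.11, 0.43 and 0.81, and the curves of the last 2 sets lie to the right of the grey curve except at the upper end, where all genes reach 2.55 and these sets 0.88 and 1.12.

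Other genes of the same machinery were partly higher. Of 15 further subunits of the same complexes 4 rose and 1 fell, with a median of 0.11. Over all genes tested, 13.0% were called higher and 13.2% lower, with a median of -0.02. Orc2, an origin recognition subunit, rose by 0.51, Pole3, a histone-fold subunit of polymerase epsilon, by 0.40, and Rbbp4, which CAF-1 shares with other chromatin complexes, by 0.27. Pold4, the smallest subunit of polymerase delta, fell by 0.37. Among 28 factors of origin firing, fork support and the replication checkpoint 8 rose and 0 fell, with a median of 0.06. The histone chaperone Asf1b rose by 0.94, and Chtf18 and Dscc1, which belong to the same alternative clamp loader, by 0.74 and 0.81.

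Of 18 genes of the E2F, pocket protein and MuvB families, which control transcription of this programme, 2 rose and 1 fell, with a median of -0.04, where 13.0% and 13.2% of all genes tested were called higher and lower. Tfdp1, the dimerization partner of E2F proteins, rose by 0.48 and Mybl2, a partner of the MuvB complex, by 0.64, while the MuvB subunit Lin37 fell by 0.35. None of E2f1 to E2f8 passed, with estimates between -0.22 (E2f2) and 0.22 (E2f6) and adjusted p of 0.304 or more, and 0 of 8 had an unadjusted p under 0.05.

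Other cell cycle genes moved in both directions, where 13.0% of all genes tested were called higher and 13.2% lower. Of 8 genes, made up of D-type and A-type cyclins, their kinases and Myc, 2 rose and 2 fell, with a median of -0.001. Ccna2, the cyclin of S phase and G2, rose by 0.88 and Cdk4, the kinase partner of D-type cyclins, by 0.48, whereas the D-type cyclin genes Ccnd2 and Ccnd3 fell by 2.28 and 0.71. Of 7 CDK inhibitor genes 5 were tested and 2 fell, Cdkn1a (p21) by 0.70 and Cdkn1b (p27) by 1.10. Cdkn2a, which encodes the Ink4a and Arf proteins named in the genotype, had 2 to 33 counts per library and was not tested.

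Nucleotide synthesis and repair genes were also partly higher. Of 21 other genes of nucleotide synthesis and turnover 7 rose and 1 fell, with a median of 0.28. The serine hydroxymethyltransferase genes Shmt1 and Shmt2, which feed the folate cycle, rose by 0.71 and 0.55. The 1 that fell was Samhd1, which breaks down deoxynucleotides in myeloid cells, by 0.74 ± 0.11 (SE, adjusted p = 0.000549), lower in the positive sort of all 6 mice. Of 17 genes of DNA repair in S phase 5 rose and 0 fell, with a median of 0.19, where 13.0% of all genes tested were called higher. Among the 5 was Brca1, of homologous recombination, at 0.82. Brca2, Bard1 and Palb2 of the same list did not pass, with estimates of -0.007, -0.16 and -0.315.

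Per length of annotated exons, the 48 genes spanned a wide range. Mean RPKM, the CPM divided by the length of all exons in kilobases, were highest for Pcna, at 57.9 ± 11.7 in rhodamine-negative and 74.2 ± 10.3 in rhodamine-positive sorts (SD, n = 6). Rfc2 followed with 39.9 ± 4.41 and 45.5 ± 2.45, then Mcm3 with 26.9 ± 2.31 and 44.0 ± 8.46. At the lower end were Dtl (0.858 ± 0.204 and 1.15 ± 0.393), Pole (0.756 ± 0.100 and 1.29 ± 0.304) and Orc1 (1.27 ± 0.202 and 1.13 ± 0.580). Within the helicase ring, whose subunits assemble in equal number, RPKM in the negative sorts ran from 6.87 for Mcm2 to 26.9 for Mcm3. The length used joins the exons of all annotated transcripts, 6956 bases for Mcm2 and 3752 for Mcm3. Their mean CPM in the negative sorts were 47.8 and 100.9, so part of the gap in RPKM comes from that length. In the order of levels, the ranges over 12 libraries overlapped for all 47 pairs of neighbours, so only genes further apart in that order were separated.

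Some values are uncertain because genes share exons. In the GENCODE annotation, 15 of the 48 genes have exons that overlap exons of another gene, and the strand setting of the counting is not given in the sources used here, so that reads of the overlapping genes cannot be assigned with certainty. Rfc2 shares 15.1% of its exon length with Lat2, an adaptor gene of the opposite strand, and their levels were close, at 269 and 281 CPM on average, with estimates of 0.19 and 0.23. Fen1 shares 78.8% with Gm10143, with 61.5 and 59.0 CPM and estimates of 0.48 and 0.47. Chaf1a shares 52.5% with Ubxn6, with 48.8 and 48.5 CPM and estimates of 0.23 and 0.30. Gins2 shares 67.3% with Gse1, with 42.4 and 35.1 CPM and estimates of 0.44 and -0.01. Rfc4 shares 12.7% with Eif4a2, with 17.8 and 99.9 CPM and estimates of 0.44 and -0.52. Orc6 shares 6.93% with the more abundant Vps35, with 14.7 and 227 CPM and estimates of 0.22 and 0.57. What part of each value came from shared exons was not tested. Among the 33 genes without such overlap, 23 rose and 0 fell, with a median of 0.47. Of all genes tested, with or without overlap, 13.0% were called higher and 13.2% lower.

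Since 30 of the genes rose, their promoters were searched for a few exact words of the type that E2F proteins bind. RefSeq windows of GRCm38.p6, from 250 bases before to 50 after a transcript start, matched 38 of the 48 genes by symbol (46 windows), all but Gmnn, Mcm4, Gins1, Gins2, Gins4, Prim2, Pole, Rfc2, Ccne2 and Tipin. The search used TTTCCCGC, TTTGGCGC, TTTCGCGC and TTTGCCGC on both strands, which can overlap each other. Of the 38 genes 18 (47.4%) had a match, against 4.65% of 10194 tested genes with a window and 1 of 34 mitosis genes (2.94%). By window, the shares were 39.1% of 46, 3.85% of 13020 windows of genes tested and 2.26% of all 32851 windows. The word of the cell cycle homology region, TTTGAA, which MuvB binds in genes of G2 and mitosis, was in 15.8% of the 38 genes, 73.5% of the 34 mitosis genes and 14.9% of tested genes. The CCAAT word of NF-Y was in 60.5%, 76.5% and 42.8%. Of the genes with an E2F-type word 9 of 18 rose (median 0.41), and of those without it 14 of 20 (median 0.46). A match is a stretch of letters and not a measured binding site. Other forms of the E2F site were not searched, so a gene without a match can still hold one.

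**Figure D5:**
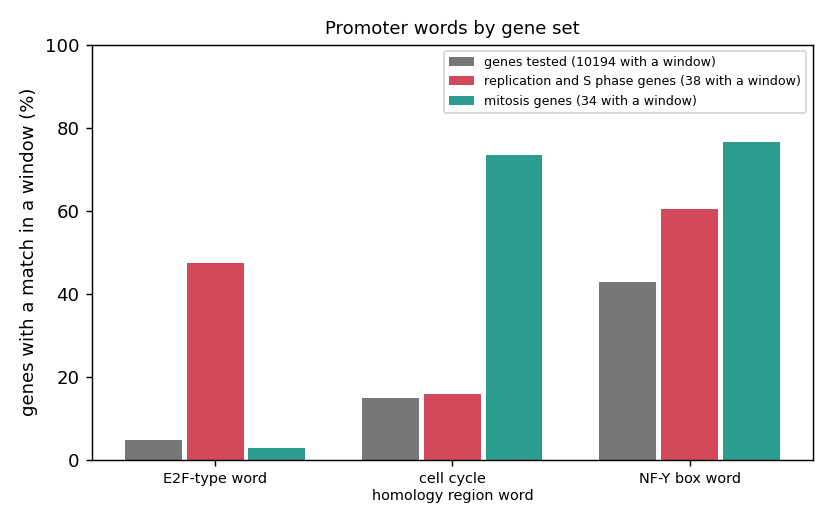
Percentage of genes with at least 1 match in a promoter window, for genes tested (grey), the replication and S phase genes (red) and mitosis genes (green). The E2F-type word is in 47.4% of the 38 replication genes with a window and 2.94% of the 34 mitosis genes, and the word of the cell cycle homology region in 15.8% and 73.5%.

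The 170 bases before the RefSeq start of 6 genes show these patterns, each on the strand of its gene, 5′ to 3′, with E2F-type words in capitals. Mcm5 and Mcm6 are shown because they rose and hold the words, and Pola1 and Dtl because they hold a word and did not pass. Rrm1 and Tyms are shown because they were among the clearest changes and hold none of the searched words in their windows. The Mcm6 stretch has 3 words, 2 of them overlapping, and the Mcm5 stretch 2 overlapping ones.
Mcm5, chr8:75109339-75109508, plus strand: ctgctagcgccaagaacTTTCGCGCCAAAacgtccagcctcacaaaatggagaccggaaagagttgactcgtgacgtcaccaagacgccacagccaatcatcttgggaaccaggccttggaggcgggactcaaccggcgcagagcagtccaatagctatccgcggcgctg
Mcm6, chr1:128359706-128359875, minus strand: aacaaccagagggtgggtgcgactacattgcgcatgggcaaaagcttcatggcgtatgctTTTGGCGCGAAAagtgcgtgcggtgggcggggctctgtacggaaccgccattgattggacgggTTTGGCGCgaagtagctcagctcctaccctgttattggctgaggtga
Pola1, chrX:93632156-93632325, minus strand: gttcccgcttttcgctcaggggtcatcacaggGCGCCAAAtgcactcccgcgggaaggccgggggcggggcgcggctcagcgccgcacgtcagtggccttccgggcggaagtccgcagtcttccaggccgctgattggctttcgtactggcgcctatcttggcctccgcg
Dtl, chr1:191575545-191575714, minus strand: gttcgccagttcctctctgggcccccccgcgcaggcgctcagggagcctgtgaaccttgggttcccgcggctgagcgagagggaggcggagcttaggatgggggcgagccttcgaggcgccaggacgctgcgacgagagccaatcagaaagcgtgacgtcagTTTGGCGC
Rrm1, chr7:102441525-102441694, plus strand: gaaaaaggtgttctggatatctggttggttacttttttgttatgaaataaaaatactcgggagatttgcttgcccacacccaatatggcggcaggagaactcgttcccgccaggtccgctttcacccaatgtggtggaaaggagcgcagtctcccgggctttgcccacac
Tyms, chr5:30073626-30073795, minus strand: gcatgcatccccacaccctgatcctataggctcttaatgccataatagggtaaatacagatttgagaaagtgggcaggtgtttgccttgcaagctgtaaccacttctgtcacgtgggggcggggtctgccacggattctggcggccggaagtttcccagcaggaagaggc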

How the data were processed

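The tools, per the submitters' processing notes, were HISAT2 2.1.0, featureCounts 1.4.4, bcl2fastq 2.17, cutadapt, limma and edgeR, on build mm10. Their settings, strand among them, are not given in the sources used here. The authors deposited raw read counts per gene, as a table equal to its 12 count files, and a table of log2 normalized values for part of the genes, used only as an alternative.

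Differences were tested with edgeR 4.0.16 (R 4.3.3, quasi-likelihood) on the deposited counts, after filterByExpr (minimum count 10, minimum total 15) and TMM scaling, with the mouse as a block, over 15014 genes. The SE is the size of the log2 fold change over the root of F, and log2 CPM used a prior count of 2. The mouse was blocked because the series description pairs the sorts of each animal. Deviations from the group means correlated across genes within mice 1 to 6 at r = 0.226, 0.207, 0.289, 0.0775, 0.302 and 0.450. For mouse 4 a library of another mouse correlated more (0.187). Libraries of a group differed by a chi-square of at least 20.2 per degree of freedom, so all were counted separately, and the mouse is the replicate.

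The 48 genes and the other lists were chosen with earlier results of these data known. In each role group the gene with the smallest p, the gene with the smallest change and all genes not passing are given by library range, and up to 3 genes per direction from each other list; some genes that this rule names are not reported here. Mcm3, Rrm2, Tyms, Gins4, Pole, Pcna and the mice singled out were chosen after their values were seen. Exon lengths, overlaps and positions came from GENCODE vM21 (mm10) and promoters from RefSeq (GRCm38.p6). Scripts were tested on simulated data. Alternatives were DESeq2 1.42.0, limma-voom (3.58.1), no block, other scalings, filters and thresholds, a length and GC offset, males alone, the deposited log2 values and each mouse left out.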

Additional observations from a re-analysis of the deposited data

Results flagged for a closer look

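In 96 groups (48 genes in 2 sorts of 6 libraries), 2 had a library far from the others by Dixon's ratio at its 95% level, a criterion that chance meets in about 1 in 20 groups. Pole in the rhodamine-positive sort of mouse 1 was at 20.8 CPM, while the other 5 positive sorts were at 11.0 to 14.6 CPM (ratio 0.629). All 5 lay above the highest negative sort, at 9.84 CPM, and leaving out mouse 1 kept the call. Tipin in the rhodamine-positive sort of mouse 2 was at 28.2 CPM, below the 32.7 to 34.5 CPM of the other 5 (ratio 0.714), and Tipin was not called with all mice.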

How the results depend on the processing

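The count of 30 higher genes was 17 with library size alone, which also called 1 gene, Gins3, lower, and 18 in the male mice alone; fewer mice are tested there. Fits without the replicate block gave 21 (Gmnn, Mcm4, Mcm10, Gins1, Pola2, Prim1, Pcna, Rfc3 and Rfc4 lost), an adjusted p of 0.01 gave 21 and limma on the deposited log2 values 24. DESeq2, limma-voom, RLE size factors, no filter, the stricter filter and the length and GC offset gave 29 to 32. Leaving out each mouse gave 24 to 28, with medians of 0.388 to 0.468. The share of all genes called higher was 13.0% in the main fit, 5.67% with library size alone and 6.64% in the male mice. It was 8.46% without the block, 6.05% at 0.01 and 11.7% in limma on the deposited values. In the fits that gave 29 to 32 it was 5.37% (no filter) to 13.9% (length and GC offset), and without a mouse 8.32% to 11.8%. In all these settings except library size alone 0 genes were lower, and the median stayed between 0.388 and 0.468 except under library size alone (0.275). Of the 30 genes, 13 kept the call in every setting at a threshold of 0.05. The restriction to genes without exon overlap was chosen after seeing the data. The number of genes past the sex interaction was 0 with RLE size factors, no filter and the stricter filter. The all-gene median was -0.315 when no filter was used. Genes with few counts, such as Orc1, Pole2 and Mcm8, had the widest SEs of the 48 genes, at 0.22 to 0.29.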
